A study of Mus musculus with 12 samples.

Results

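Macrophages carrying the IRX3_S389A construct were compared with macrophages carrying wild-type IRX3 (IRX3_WT). The comparison rests on 6 of the 12 libraries of the series, 3 per construct, taken by their construct labels, and on 13369 of the 55401 genes listed, those that reached 10 normalized counts in 3 or more of the 12 libraries. All 12 libraries are total RNA of macrophages grown from the bone marrow of Irx3-/- mice (C57BL/6J) for 7 days in 20 nM of the growth factor M-CSF. Every culture had been given 1 construct by adeno-associated virus (AAV), namely GFP, IRX3_WT, IRX3_S361A or IRX3_S389A, and then 100 ng/ml of lipopolysaccharide (LPS) for 4 h. IRX3 thus came from viral overexpression in cells without the endogenous gene, and no unstimulated culture enters the comparison. Whether the 3 libraries of a construct are separate animals, cultures or preparations is not stated, so p-values measure the spread between libraries only, which may be technical.

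IRX3 belongs to the Iroquois family of homeobox transcription factors, and in IRX3_S389A a serine is replaced by alanine, a residue that cannot be phosphorylated. LPS is bound by CD14 and Toll-like receptor 4, which signals through the adaptor MyD88 to NF-kappaB and AP-1, the factors behind the early cytokine genes, and through the adaptor TRIF to interferon beta. Interferon beta then acts back on the cell through its receptor and switches on the interferon-stimulated genes. Sterol synthesis in macrophages is driven by SREBP2 and is known to be tied to interferon signalling, and macrophages differentiated in M-CSF still divide to some extent.

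The libraries of both constructs were alike in depth, with 17149058 to 20108002 recovered reads over the 12 libraries. Transcripts of the mitochondrial genome held 1.32 to 1.56% of each total. In a principal component analysis of the 6 libraries the first component (30.6% of the variance) placed IRX3_WT between -21.9 and -13.3 and IRX3_S389A between 16.7 and 17.3. On the second (19.2%) IRX3_WT replicate 3, at -24.6, stood apart from replicates 1 and 2, at 17.7 and 12.3, and calls that depend on single libraries are given as such. Genes of low GC content were relatively high in IRX3_WT replicate 1 and IRX3_S389A replicate 3, where the Spearman correlation across genes of a library's deviation with transcript GC was -0.288 and -0.218. Each group thus holds 1 such library, and IRX3_S361A replicate 1 had a trend of the opposite sign (0.261). Replicates 2 and 3 of IRX3_WT were also negative (-0.08 and -0.116), while replicates 1 and 2 of IRX3_S389A were positive (0.064 and 0.052). Across genes the log2 difference between IRX3_S389A and IRX3_WT correlated with transcript GC at a Spearman of 0.137.

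Irx3 itself was at like levels in both groups. The IRX3_WT libraries held 165, 170 and 196 normalized counts and the IRX3_S389A libraries 194, 203 and 165, while the GFP libraries had no read (a count of 0 allows up to 3) and the IRX3_S361A libraries 324, 364 and 358. The ranges of IRX3_WT and IRX3_S389A overlapped, and the log2 difference was 0.08 (95% interval -0.30 to 0.46, limma adjusted p = 0.839). Irx3 (ENSMUSG00000031734.13) lies on chromosome 8, from 91798525 to 91802067 on the minus strand of GRCm38. Its neighbours in the genome, Fto (log2 difference 0.02) and Rpgrip1l (log2 difference -0.18), did not pass the test either. The coding sequence of the constructs, and so the share of its reads that this mouse gene received, is not stated.

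With that level of Irx3, 2043 of 13369 genes (15.3%) passed the test between IRX3_S389A and IRX3_WT (limma, Benjamini-Hochberg adjusted p under 0.05). Of these 1097 (8.21% of the genes tested) were higher with IRX3_S389A and 946 (7.08%) lower. All differences below are of log2(normalized count + 1) unless a fold is given. Most were small, the median log2 difference being 0.28 among the higher and -0.25 among the lower genes, and 247 genes (1.85%) changed by 1.5-fold or more. At 2-fold or more, 27 rose and 39 fell. Values of both groups did not overlap for 3890 genes (29.1%). The number called ran from 1448 (without IRX3_S389A replicate 1) to 2173 (without IRX3_S361A replicate 1) when 1 of the 12 libraries was left out. Called genes also differed in base composition, with a median transcript GC of 50.9% for the higher, 47.0% for the lower and 49.2% for all genes tested. On GC-corrected values 2137 genes were called, 1825 of them among the 2043. Another gene covers 18.1 to 23.4% of the exon bases of Nfkb2, Fdft1, Dusp5 and Ebi3 and 70.2% of those of Glcci1, and since no strand setting is stated, reads of such partners cannot be told apart.

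**Figure D1:**
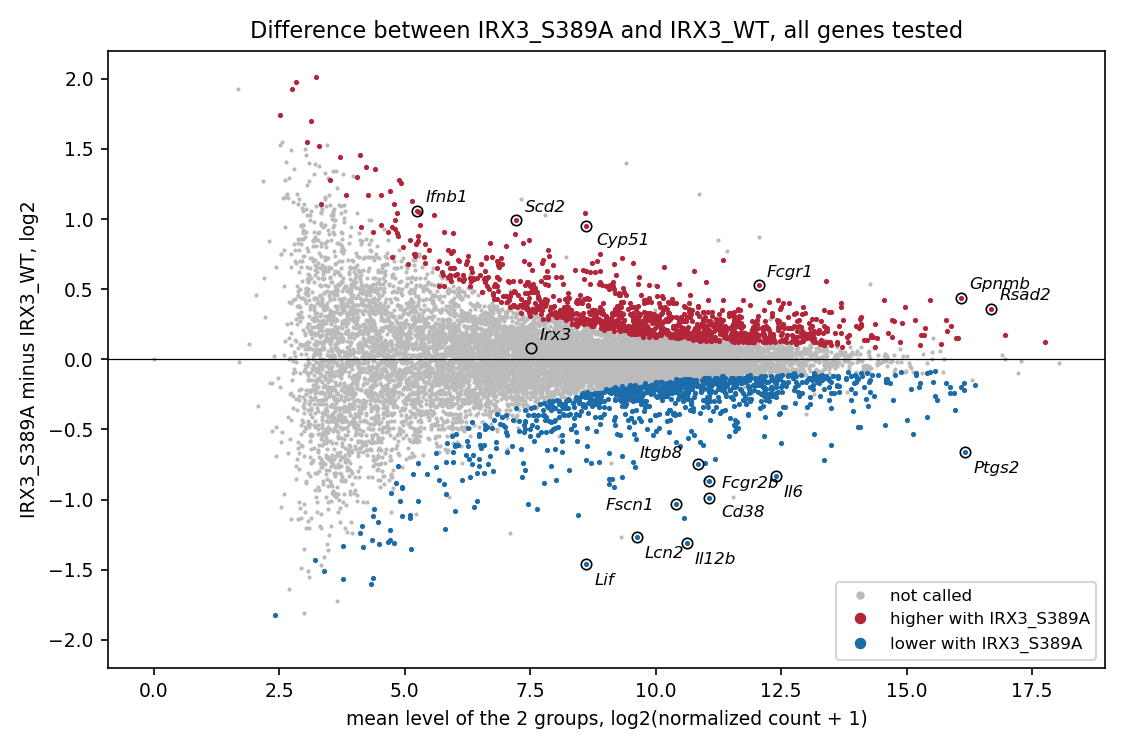
Log2 difference between IRX3_S389A and IRX3_WT (y axis) against the mean level of both groups on the log2(normalized count + 1) scale (x axis) for the genes tested, with called genes in colour and named genes circled. 2 genes lie outside the y axis, and Irx3 sits close to 0 while Lif, Il12b and Lcn2 lie far below and Ifnb1 and Cyp51 about 1 above.

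Secreted cytokines of the early inflammatory response were lower with IRX3_S389A. Of 21 cytokine genes tested, 10 fell and 2 rose, against 7.08% and 8.21% of all genes tested, with a median log2 difference of -0.34 where that of all genes was 0. Lif encodes a cytokine of the interleukin 6 family. It held 615, 531 and 583 normalized counts in the IRX3_WT libraries and 195, 223 and 208 in the IRX3_S389A libraries, beside 184, 188 and 152 with GFP. Every IRX3_S389A library thus lay far below every IRX3_WT library and slightly above the GFP libraries, and Lif fell by 1.46 in log2 (SE 0.11, limma adjusted p = 1.71e-12). Il12b encodes the subunit shared by interleukins 12 and 23, and its partner in interleukin 12 is encoded by Il12a. Il12b stood at 2348, 2105 and 2247 with IRX3_WT and at 905, 859 and 937 with IRX3_S389A, and fell by 1.31 (SE 0.06, adjusted p = 2.67e-17), the smallest p of the comparison. Il12a, at 245, 349 and 220 against 118, 121 and 142, fell by 1.07 (SE 0.15). Neither gene's groups overlapped.

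The other members differed from gene to gene. Il6 counts were 7488, 6453 and 6667 with IRX3_WT and 3688, 3852 and 4007 with IRX3_S389A, a fall of 0.83 (SE 0.08, limma adjusted p = 2.13e-05). Osm, a further member of the interleukin 6 family, fell by 0.85. The 2 interleukin 1 genes fell by 0.74 (Il1a, 2532, 2300 and 2764 against 1451, 1536 and 1545) and 0.53 (Il1b, 44600, 40026 and 42801 against 29497, 30620 and 28286). Ebi3, a subunit of interleukin 27, fell by 0.34. Tnf, with 41304, 44615 and 39012 against 38403, 37806 and 40422, had overlapping ranges and did not pass (-0.10, 95% interval -0.17 to -0.03, adjusted p = 0.06). Il18 (log2 difference -0.04), Il15 (log2 difference 0.11) and Csf1 (log2 difference 0.11) did not pass either. In the opposite direction Tnfsf8, which encodes the ligand of CD30, went from 28.6, 38.4 and 26.2 to 64, 62.4 and 64 and rose by 1.03 (SE 0.23, adjusted p = 0.00137). When single libraries were left out in turn, 8 of the 10 lower calls and 1 of the 2 higher calls held each time. Without both IRX3_WT replicate 1 and IRX3_S389A replicate 3, the 2 of the 6 libraries with the strongest GC trend, 8 members were lower and the median was -0.25. On GC-corrected values 12 were lower, at a median of -0.37.

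Of 20 chemokine genes tested, 7 fell and 5 rose, and the median was -0.01. The number higher was 3 without IRX3_WT replicate 1 and 2 without IRX3_S389A replicate 2. The neutrophil-attracting CXC chemokines were among the lower: Cxcl3 fell by 0.48 (20928, 20440 and 18483 against 13461, 13941 and 15657) and Cxcl1 by 0.41 (adjusted p = 0.00645, limma). Ccl3 fell by 0.26 and Ccl5 by 0.28, with 21722, 20904 and 19285 for Ccl5 in IRX3_WT and 16759, 17408 and 16821 in IRX3_S389A, again without overlap. The monocyte-attracting ligands of CCR2 rose instead. Ccl7 went from 2787, 2910 and 2654 to 3435, 3660 and 3584 (0.36, SE 0.05, adjusted p = 3.7e-07) and Ccl12 rose by 0.57. Ccl2, at 3609, 3569 and 3542 and 4058, 4429 and 3912, rose by 0.21, and the interferon-inducible Cxcl10, at 53466, 53879 and 46043 and 62221, 63309 and 60065, by 0.28. Without IRX3_S389A replicate 2 Ccl2 was not called (limma adjusted p = 0.0602), and Cxcl10 was not without IRX3_WT replicate 1, IRX3_S361A replicate 2 or any IRX3_S389A library (adjusted p up to 0.105). In all 5 of the 7 lower and 2 of the 5 higher calls held whichever library was left out.

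**Figure D2:**
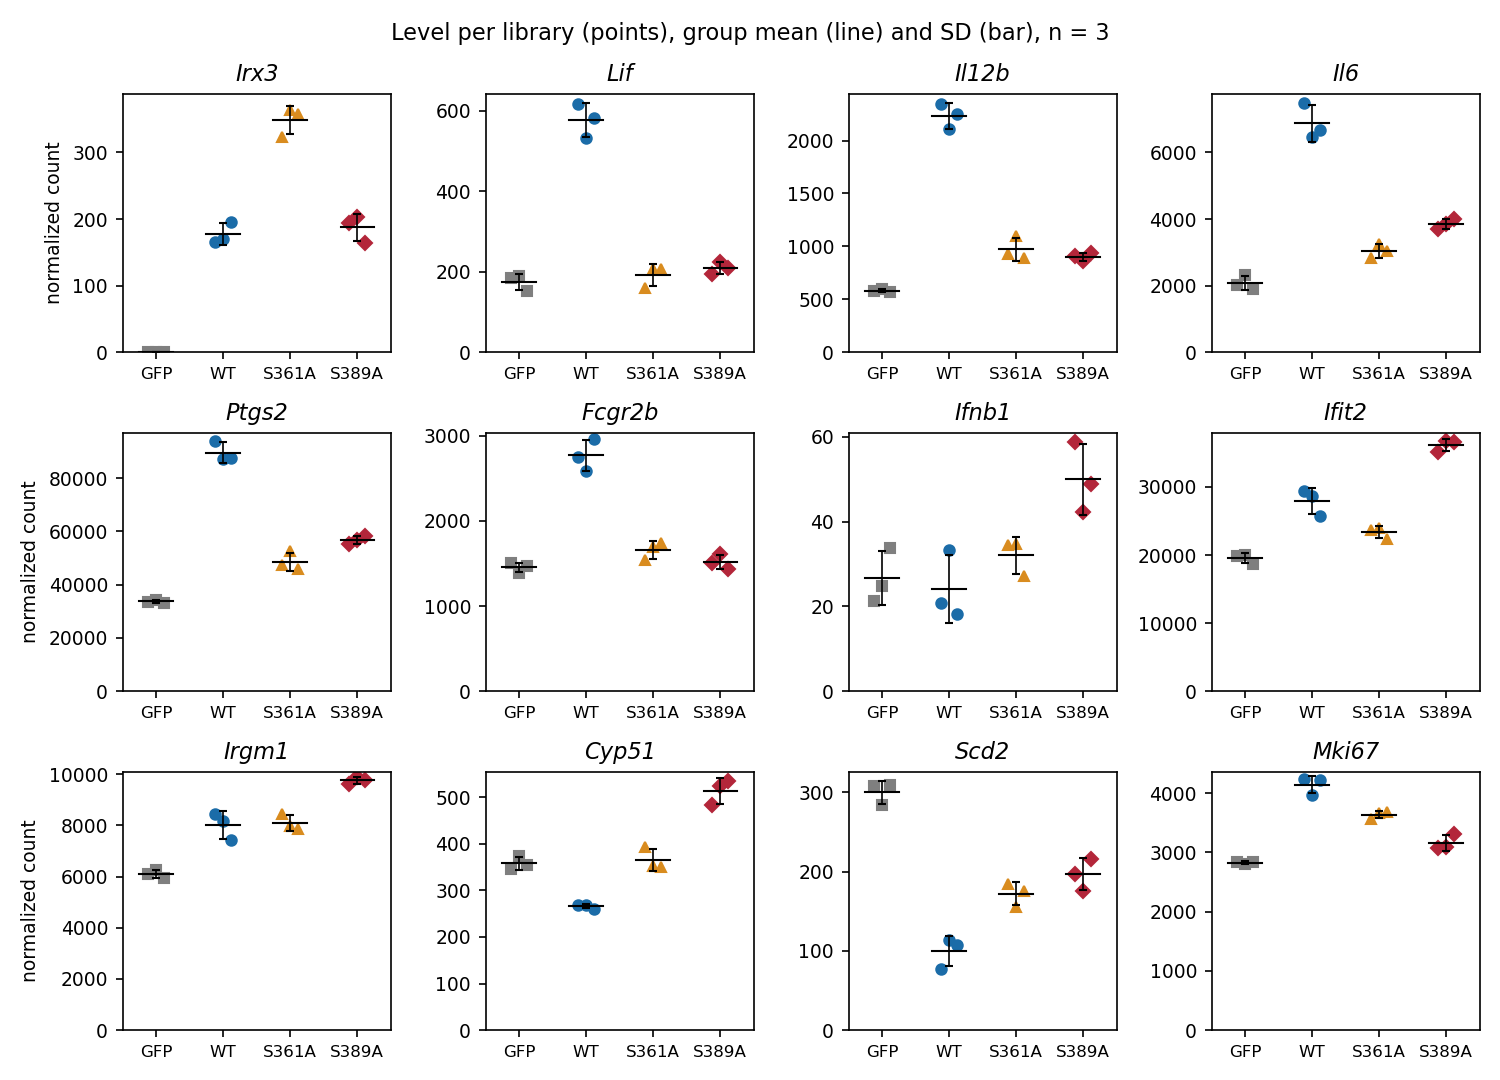
Normalized count of 12 genes (y axes from 0) in each library of the 4 constructs (x axis), with the mean of 3 libraries as a line and their SD as a bar. With IRX3_S389A the 3 points of Lif, Il12b, Il6, Ptgs2, Fcgr2b and Mki67 lie below all IRX3_WT points and those of Ifnb1, Ifit2, Irgm1, Cyp51 and Scd2 above them, while the points of Irx3 are mixed.

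Among the genes of NF-kappaB itself every call was in 1 direction. Of 25 subunit, inhibitor and feedback genes, 13 fell and none rose, with a median of -0.12, and no member changed by 1.5-fold. All but 1 of these calls held whichever library was left out, and 8 members were lower with limma without trended and robust variances. Without both IRX3_WT replicate 1 and IRX3_S389A replicate 3 (GC trend) 10 were lower, and on GC-corrected values 15. The adaptor Traf1 held 9240, 9902 and 9634 normalized counts with IRX3_WT and 7889, 7659 and 7441 with IRX3_S389A and fell by 0.32 (SE 0.04, limma adjusted p = 3.63e-08). Nfkbia, which encodes the inhibitor that holds NF-kappaB in the cytoplasm and is itself an NF-kappaB target, went from 18421, 19941 and 19840 to 16801, 16841 and 16978, a fall of 0.20. The paracaspase Malt1 fell by 0.26, Tnip1 by 0.23, the subunits Nfkb1 by 0.15 and Nfkb2 by 0.16, and the deubiquitinase Tnfaip3 by 0.12. Rela (log2 difference -0.08, adjusted p = 0.3) and Rel (log2 difference -0.08, adjusted p = 0.18), which encode subunits that carry the activation domain, did not pass. The Toll-like receptor 4 list sat nearer the background, with 4 of 24 lower and 1 higher. Cd14, at 73765, 74871 and 75329 against 65594, 67558 and 62117, fell by 0.20 and the inhibitory kinase Irak3 by 0.24, and these 2 calls alone held whichever library was left out. Tlr4 (log2 difference 0.16) and Myd88 (log2 difference 0.05) did not pass.

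To show where an NF-kappaB element lies in genes of these groups, the 250 bases before the start of Nfkbia and Il6 were taken from the RefSeq promoters of GRCm38.p6, at chr12:55492648-55492897 on the minus strand and chr5:30012864-30013113 on the plus strand. Capitals mark GGG and TTTCC with any 2 bases between them, searched on both strands.

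Nfkbia: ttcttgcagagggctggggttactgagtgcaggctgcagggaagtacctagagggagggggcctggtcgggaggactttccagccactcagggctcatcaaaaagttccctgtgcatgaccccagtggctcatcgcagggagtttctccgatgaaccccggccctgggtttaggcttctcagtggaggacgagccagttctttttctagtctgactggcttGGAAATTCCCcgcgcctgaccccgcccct
Il6: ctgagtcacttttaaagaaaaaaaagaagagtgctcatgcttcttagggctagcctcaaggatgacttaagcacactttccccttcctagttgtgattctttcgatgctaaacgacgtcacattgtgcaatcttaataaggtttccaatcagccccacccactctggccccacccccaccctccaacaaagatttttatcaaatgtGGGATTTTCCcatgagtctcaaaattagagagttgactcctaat

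The match begins 29 bases before the start in Nfkbia and 44 in Il6. Over 300 bases (250 before to 50 after the start) 5 of the 19 NF-kappaB list members with a promoter entry held it (26.3%), and 3 of 15 cytokine genes (20.0%), against 1.63% of the 32851 promoters in the table. Of the genes tested with an entry 2.1% held it. Among NF-kappaB list members it was found in 3 of 9 that were called (33.3%) and 2 of 10 that were not (20.0%), and among cytokine genes in 1 of 9 called (11.1%) and 2 of 6 not called (33.3%).

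Of 26 genes of JNK, p38 and AP-1, 8 fell and 2 rose, and 6 of the lower and both higher calls held whichever library was left out. Fosl2, a Fos-family subunit of AP-1, went from 2951, 2569 and 3071 to 1663, 1918 and 1668 and fell by 0.71 (SE 0.08, limma adjusted p = 2.09e-05), Batf fell by 0.46, Maff by 0.36 and Dusp5, a phosphatase of ERK, by 0.74. Jun (log2 difference 0.03) did not pass, and Atf3, a repressor induced by stress, rose by 0.30 from 5770, 5957 and 5490 to 7096, 7274 and 6863. In the list of Nr4a receptors and Egr factors, genes of the immediate early response, 5 of 14 fell and 2 rose, but 2 were lower without IRX3_S389A replicate 1. The nuclear receptor Nr4a1 held 847, 696 and 825 with IRX3_WT and 469, 486 and 505 with IRX3_S389A and fell by 0.69 (SE 0.08), and Nr4a2 fell by 0.84. Nr4a3 fell by 0.48, a call lost without IRX3_WT replicate 2 or IRX3_S389A replicate 1 (limma adjusted p up to 0.098). Klf2, a factor known to restrain inflammatory gene expression, rose by 0.56 (174, 149 and 186 against 260, 273 and 220).

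Of 19 feedback genes of the inflammatory response 5 rose and 3 fell, at a median of 0.01. The number lower ran from 1 (without IRX3_WT replicate 3) to 5 (without IRX3_S361A replicate 1), and 3 of the 5 higher and 1 of the 3 lower calls held whichever library was left out. Il1rn encodes the interleukin 1 receptor antagonist, and its counts were 11623, 11580 and 11626 with IRX3_WT and 14759, 15521 and 14719 with IRX3_S389A. It rose by 0.37 (SE 0.04, limma adjusted p = 1.52e-09) while both interleukin 1 genes fell. Zfp36, whose product destabilises cytokine transcripts, rose by 0.23, and the repressor Etv3 by 0.31. Zc3h12a, whose product cleaves cytokine transcripts, fell by 0.26. Il10 did not pass (526, 535 and 512 against 501, 589 and 538, log2 difference 0.05).

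Inducible enzymes of prostaglandin synthesis were lower. Ptgs2 (cyclooxygenase-2) held 94027, 87059 and 87339 normalized counts with IRX3_WT and 55129, 56915 and 58192 with IRX3_S389A, and fell by 0.66 (SE 0.04, limma adjusted p = 3.39e-10). Ptges, which makes prostaglandin E2 from the product of Ptgs2, fell by 0.61 (13789, 12956 and 15036 against 9315, 9234 and 8783), and Pla2g4a, which releases arachidonic acid, by 0.30. The antimicrobial siderophore binder Lcn2 fell by 1.27 (1005, 1026 and 1312 against 430, 497 and 446), the NADPH oxidase genes Ncf1 by 0.24 and Cybb by 0.17, and Nos2, which makes nitric oxide, by 0.25 (5431, 5027 and 4846 against 4258, 4630 and 4023). Acod1, which makes itaconate, did not pass (log2 difference -0.01), nor did Gch1 (log2 difference 0.04). Of this list of 26, 10 fell and 3 rose. Among inflammasome and cell death genes the sensor Nlrp3 fell by 0.29 (31061, 29665 and 29104 against 24590, 24704 and 23925), whereas the necroptosis effector Mlkl rose by 0.36, Casp8 by 0.23 and Gsdmd, the pore-forming target of inflammatory caspases, by 0.19 (4 of 19 higher, 2 lower).

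Interferon-stimulated genes went the other way from the cytokines. Of 59 tested, 37 rose and none fell, and 38 had groups that did not overlap, where the share over all genes was 29.1%. The median difference over all 59 was 0.22, and 1 member (Ifit3b, 0.71) passed 1.5-fold. Ifit2, which binds viral RNA, held 29425, 28667 and 25768 with IRX3_WT and 35117, 36723 and 36663 with IRX3_S389A and rose by 0.37 (SE 0.04, limma adjusted p = 2.07e-07). The GTPase Irgm1 went from 8449, 8168 and 7420 to 9601, 9893 and 9783 (0.29), and Rsad2, which encodes viperin, from 95899, 94518 and 85606 to 116160, 119895 and 117630 (0.36). Ifit3 rose by 0.56, Cmpk2 by 0.42, Epsti1 by 0.37, Tgtp2 by 0.35, Isg15 by 0.27 and Slfn5 by 0.27. In each of Ifit2, Irgm1 and Rsad2 all 3 IRX3_S389A libraries exceeded all 3 IRX3_WT libraries, and IRX3_WT replicate 3 was the lowest of its group. Members that did not pass included the guanylate-binding protein genes Gbp2 (log2 difference 0.09), Gbp3 (log2 difference -0.04) and Gbp5 (log2 difference -0.01). Of the 37 calls 32 held whichever library was left out, and 41 members were higher without IRX3_WT replicate 1 and IRX3_S389A replicate 3, the 2 of the 6 libraries with the strongest GC trend. With limma without trended and robust variances 25 members were higher.

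The inducing cytokine and its signalling factors were partly higher. Ifnb1 (ENSMUSG00000048806.4, chromosome 4) encodes interferon beta and was weakly represented, at 20.7, 33.2 and 18.2 counts with IRX3_WT and 58.9, 42.3 and 48.8 with IRX3_S389A. All IRX3_S389A values lay above all IRX3_WT values, and Ifnb1 rose by 1.06 (SE 0.27, limma adjusted p = 0.00494). Of 19 genes of interferon beta induction and receptor signalling 6 rose and 2 fell. The interferon regulatory factors Irf7 (9363, 9480 and 8829 against 11887, 12450 and 10878, 0.35), Irf1 (0.27) and Irf5 (0.19) and the signal transducer Stat2 (0.19) rose. The kinases Tbk1 (log2 difference -0.05) and Ikbke (log2 difference -0.05) and Irf3 (log2 difference -0.05), which act upstream of Ifnb1, did not pass, and Ticam2, the adaptor between Toll-like receptor 4 and TRIF, fell by 0.25.

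Sensors of foreign nucleic acid, many of them interferon-inducible, rose in 10 of 15 cases and fell in none, and 6 of these calls held whichever library was left out. Samhd1, which depletes nucleotides, went from 16119, 15914 and 14588 to 19053, 19942 and 18547 (0.30, SE 0.04, limma adjusted p = 5e-07). Tlr3 rose by 0.31, the DNA sensor Aim2 by 0.26, the kinase Eif2ak2 by 0.22 and Ddx58, which encodes the RNA sensor RIG-I, by 0.16. Tlr7 (log2 difference -0.04) and Mavs (log2 difference 0.18) did not pass. Of 21 genes of MHC class I presentation 9 rose, among them the immunoproteasome subunit genes Psmb9 (0.31) and Psmb10 (0.26) and the peptide transporter Tap1 (0.19), and 2 fell. The 2 were the class I genes H2-Q6 (fell by 0.49) and H2-Q7 (fell by 0.47), near-identical copies between which reads may have been split, so both values are uncertain. Of 15 genes of MHC class II and costimulation 5 rose and 2 fell, at a median of 0.08. H2-DMb1 rose by 0.38 and Ctss, the protease that frees class II molecules of the invariant chain, by 0.26, whereas the costimulatory ligand Icosl fell by 0.51.

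Promoters of interferon-stimulated genes are known for the interferon-stimulated response element, and the following stretches of GRCm38.p6 show where it lies in 3 genes that rose. They cover 250 bases before the start of Irgm1 (chr11:48871421-48871670, minus strand), Tgtp2 (chr11:49064213-49064462, minus strand) and Rsad2 (chr12:26456453-26456702, minus strand), again from RefSeq, with the element (GAAA and GAAA with any 2 bases between them, on either strand) in capitals.

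Irgm1: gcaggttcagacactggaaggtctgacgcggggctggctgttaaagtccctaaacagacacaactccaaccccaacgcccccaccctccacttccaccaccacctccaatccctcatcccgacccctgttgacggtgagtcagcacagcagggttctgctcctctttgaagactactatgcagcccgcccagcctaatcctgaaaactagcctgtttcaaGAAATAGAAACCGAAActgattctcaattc
Tgtp2: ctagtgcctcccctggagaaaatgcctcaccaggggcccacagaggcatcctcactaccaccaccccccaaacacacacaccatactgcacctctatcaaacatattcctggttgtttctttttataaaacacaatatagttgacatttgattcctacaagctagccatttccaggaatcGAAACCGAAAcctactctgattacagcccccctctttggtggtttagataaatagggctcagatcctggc
Rsad2: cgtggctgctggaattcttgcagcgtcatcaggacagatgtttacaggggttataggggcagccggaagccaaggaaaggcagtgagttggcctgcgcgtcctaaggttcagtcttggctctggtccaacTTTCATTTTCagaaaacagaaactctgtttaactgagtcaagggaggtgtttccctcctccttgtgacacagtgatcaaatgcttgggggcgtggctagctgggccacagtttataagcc

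Irgm1 held 2 overlapping matches, of which the nearer begins 24 bases before the start, and the single matches of Tgtp2 and Rsad2 begin 70 and 120 bases before it. The element was found in 31 of the 49 members with a promoter entry (63.3%), against 3.44% of all 32851 promoters. It was present in 20 of 31 called members (64.5%) and 11 of 18 that did not pass (61.1%). Over the whole comparison 7.68% of 859 genes called higher and 3.38% of 740 called lower held it in a promoter. Of all 9493 genes tested that had an entry, 4.1% did. ACANNTGT, a palindrome of the kind bound by Iroquois proteins and so the same on both strands, was found in 7.38% of all promoters. Counted by gene, it was found for 4.66% of genes tested, 5.01% of genes called higher and 4.46% of genes called lower.

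**Figure D3:**
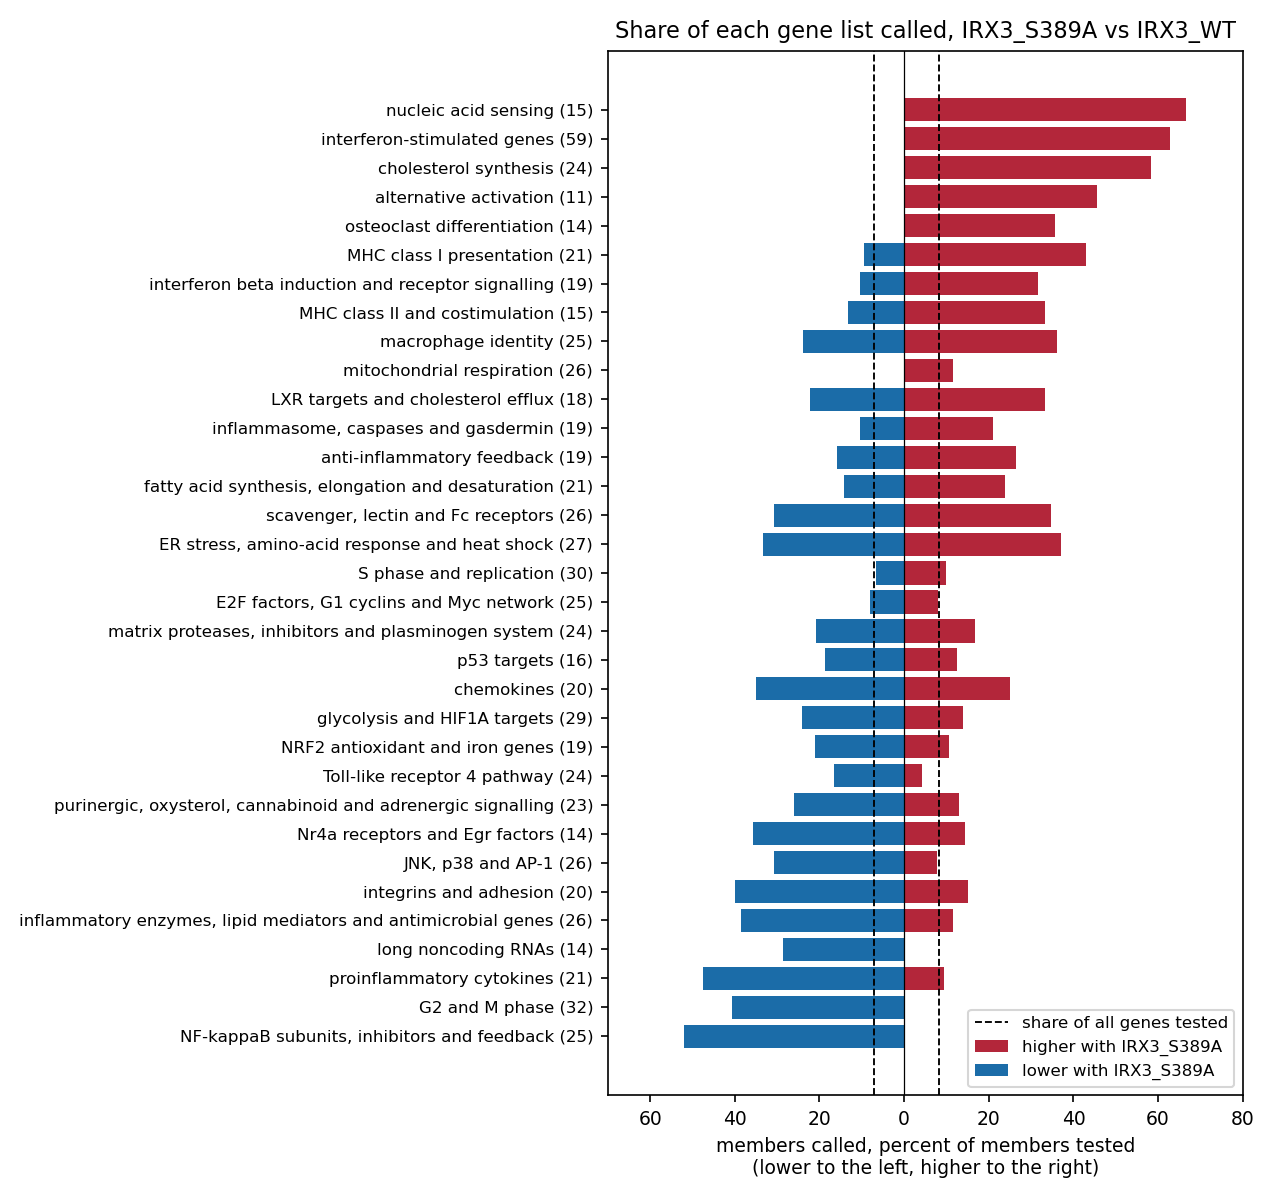
Percent of the tested members of each gene list (number tested in brackets) called higher (right) or lower (left) with IRX3_S389A. Dashed lines mark the shares over all genes tested, 8.21% and 7.08%, and nucleic acid sensing, interferon-stimulated genes and cholesterol synthesis have no lower and NF-kappaB and G2 and M phase no higher member. Osteoclast differentiation, alternative activation and mitochondrial respiration also have no lower member, and long noncoding RNAs no higher one.

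Genes of cholesterol synthesis had the highest median of the lists with 10 or more genes tested, 0.47. Of 24 members 14 rose and none fell, 9 rose by 1.5-fold or more, and 10 of the 14 calls held whichever library was left out. Without IRX3_WT replicate 1 and IRX3_S389A replicate 3 the median was 0.32, with 11 members higher. Cyp51, which removes the 14-alpha methyl group of lanosterol, held 268, 269 and 261 normalized counts with IRX3_WT and 482, 523 and 535 with IRX3_S389A, beside 346, 373 and 355 with GFP. Its IRX3_S389A values lay far above those of both other groups, and it rose by 0.95 (SE 0.08, limma adjusted p = 7.02e-11). Sqle, which adds the epoxide to squalene, went from 305, 360 and 374 to 540, 586 and 556, again without overlap, and rose by 0.70. Msmo1 and Fdft1 rose by 0.69, Pmvk by 0.67, Idi1 by 0.63, and Insig1, a brake on SREBP processing, by 0.54 (623, 689 and 644 against 906, 958 and 975). Hmgcs1 did not pass (log2 difference 0.18). TCACNCCAC, a sterol response element searched on both strands, was found in 1 of 17 list members with a promoter entry (5.88%). Of all promoters 1.24% held it, and of genes tested 1.4%.

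Of 21 fatty acid genes 5 rose and 3 fell. The number higher was 3 without IRX3_WT replicate 1, IRX3_S389A replicate 1 or IRX3_S389A replicate 2. The desaturase Scd2 rose by 0.99 (77.8, 113 and 108 against 197, 176 and 217, limma adjusted p = 3.51e-07), the elongase Elovl6 by 1.13 (29.5, 12.5 and 22.8 against 41.3, 60.4 and 38.6) and Acaca, which makes malonyl-CoA, by 0.30. The acyl-CoA synthetase Acsl1, strongly expressed in these cells, fell by 0.37 (17868, 17193 and 17759 against 13532, 13673 and 13568), and Acsl5 and Acsl4 by 0.23 and 0.21. Srebf1, which encodes SREBP1, did not pass (log2 difference 0.03). Among targets of the oxysterol receptor LXR, Abcg1, which exports cholesterol, rose by 0.41 (1007, 1093 and 1001 against 1363, 1348 and 1424), while Apoe fell by 0.18 and Ch25h, which makes 25-hydroxycholesterol, by 0.22. In all 6 of 18 rose and 4 fell.

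Mitotic genes were lower with IRX3_S389A while genes of DNA replication were near the background. Of 32 genes of G2 and M phase 13 fell and none rose, with a median of -0.31. Mki67, the proliferation marker Ki-67, held 4236, 3973 and 4217 with IRX3_WT and 3075, 3089 and 3304 with IRX3_S389A and fell by 0.39 (SE 0.04, limma adjusted p = 5.51e-09). Top2a, which untangles chromosomes, went from 1956, 1782 and 1831 to 1412, 1523 and 1562 and fell by 0.31. The kinases Aurka (127, 127 and 130 against 72.3, 81.5 and 82.3) and Plk1 fell by 0.69 and 0.68, the spindle-associated Hmmr by 0.75 (115, 125 and 138 against 60.9, 80.5 and 83.3) and the kinetochore gene Cenpf by 0.86. None of the 3 groups of other constructs was as low: the median of the list, relative to the mean of the IRX3_WT libraries, was -0.33, -0.28 and -0.27 in the IRX3_S389A libraries, -0.02, 0.03 and 0.15 with IRX3_S361A and 0.05, 0.11 and 0.10 with GFP. Of the 13 calls 7 held whichever library was left out, those of all 6 genes named here among them, and 8 (without IRX3_WT replicate 3) to 14 members were called lower in each such fit. In bulk RNA fewer dividing cells and less of these transcripts per cell cannot be told apart.

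In the replication list 3 of 30 genes rose and 2 fell, against 8.21% and 7.08% of all genes tested, with a median of 0.05. Cdt1, which licenses origins, fell by 0.39 (788, 756 and 727 against 624, 577 and 534, limma adjusted p = 2.76e-05), and Pcna (log2 difference -0.06), Rrm1 (log2 difference 0.02) and Mcm5 (log2 difference 0.03) did not pass. Of the 5 calls of the list, that of Cdt1 alone held whichever library was left out. Of 25 E2F, cyclin and Myc network genes 2 fell and 2 rose, which is near the shares over all genes tested. The cyclin-dependent kinase inhibitor Cdkn1b fell by 0.42, and Mxd1, an antagonist of Myc, rose by 0.40 (1104, 1211 and 1041 against 1481, 1442 and 1495). These 2 of the 4 calls held whichever library was left out. Myc (log2 difference -0.16) and E2f1 (log2 difference 0.06) did not pass.

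Promoters of mitotic genes are known for the cell-cycle genes homology region, TTTGAA, which is shown in capitals, on either strand, in the 250 bases before the start of Mki67 (chr7:135716380-135716629, minus strand) and Top2a (chr11:99024190-99024439, minus strand) in GRCm38.p6, from RefSeq.

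Mki67: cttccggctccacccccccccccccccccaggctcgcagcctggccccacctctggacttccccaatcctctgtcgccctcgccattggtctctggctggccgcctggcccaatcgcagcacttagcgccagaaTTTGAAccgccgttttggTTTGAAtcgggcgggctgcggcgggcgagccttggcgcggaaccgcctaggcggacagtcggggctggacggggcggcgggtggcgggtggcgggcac
Top2a: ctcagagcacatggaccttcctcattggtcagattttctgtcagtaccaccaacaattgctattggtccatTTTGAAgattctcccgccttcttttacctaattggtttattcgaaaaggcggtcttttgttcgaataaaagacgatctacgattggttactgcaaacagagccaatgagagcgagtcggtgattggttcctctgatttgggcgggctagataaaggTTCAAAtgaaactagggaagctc

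Both stretches held 2 matches, the nearest beginning 98 bases before the start in Mki67 and 23 in Top2a. The sequence was found in 19 of the 26 list members with a promoter entry (73.1%) against 17.9% of all promoters and 14.5% of genes tested. It was found in 10 of 13 called members (76.9%) and 9 of 13 not called (69.2%).

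**Figure D4:**
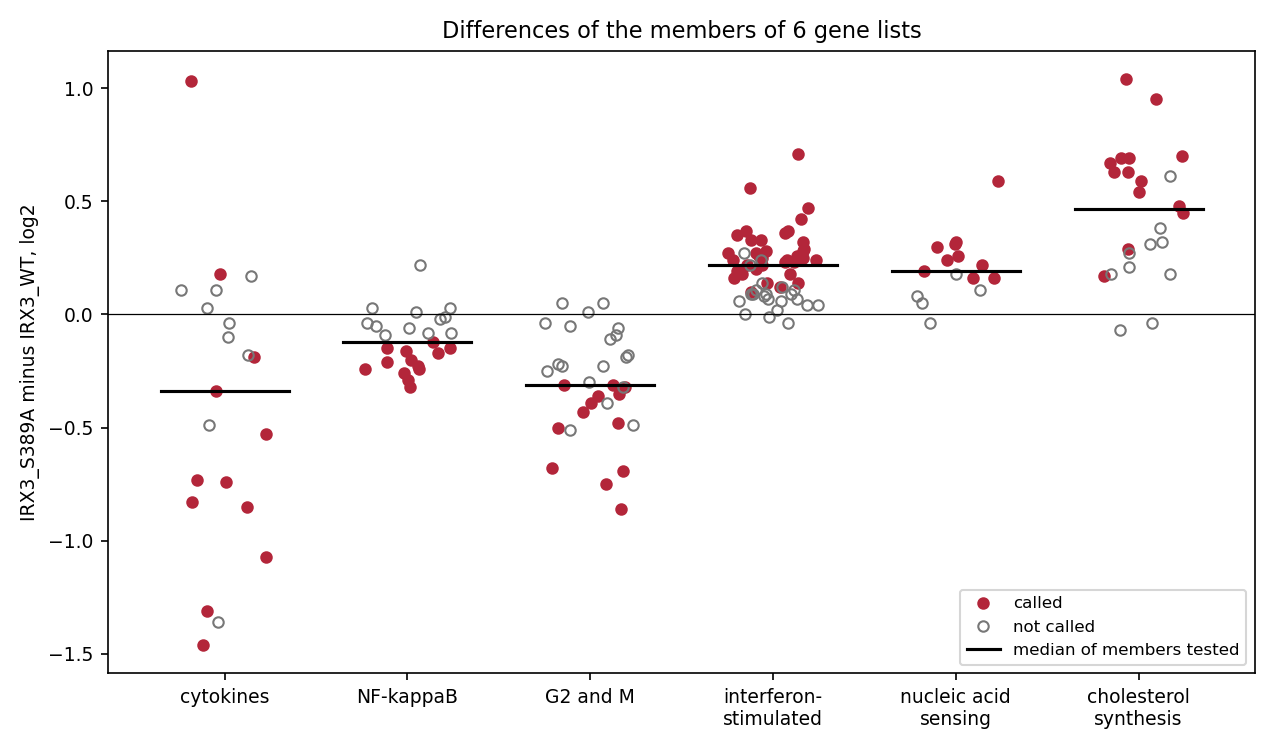
Log2 difference between IRX3_S389A and IRX3_WT (y axis) for each tested member of 6 gene lists (x axis), with called genes filled and the median as a line. The medians lie at -0.34, -0.12 and -0.31 for the first 3 lists and at 0.22, 0.19 and 0.47 for the last 3.

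Surface receptors of the macrophage changed in both directions. Fcgr2b, the inhibitory Fc gamma receptor, held 2755, 2592 and 2961 with IRX3_WT and 1508, 1608 and 1440 with IRX3_S389A and fell by 0.87 (SE 0.05, limma adjusted p = 5.61e-14), whereas the activating high-affinity receptor Fcgr1 rose by 0.53 (3528, 3561 and 3290 against 5136, 5176 and 4729, adjusted p = 9.52e-12). Fcgr4 rose by 0.41 and Fcgr3 by 0.24, so that all 3 activating genes were higher and the inhibitory gene lower. The scavenger receptor Marco fell by 0.60 (6917, 6659 and 7301 against 4788, 4852 and 4185) and the chemokine receptor Cx3cr1 by 0.53. The mannose receptor Mrc1 rose by 0.55 (1792, 1491 and 1716 against 2400, 2397 and 2494) and the lectin gene Clec4n, which encodes Dectin-2, by 0.50. Msr1 (log2 difference -0.09) and Cd36 (log2 difference -0.05) did not pass. Of the 25 macrophage identity genes 9 rose and 6 fell, and the general markers differed little, with Cd68 at 0.17 and Spi1, which encodes PU.1, at -0.03 (not called).

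Genes linked to osteoclast formation rose in 5 of 14 cases, and none fell. Dcstamp, needed for the fusion of precursors, went from 306, 285 and 282 to 457, 421 and 486 (0.64, SE 0.09, limma adjusted p = 1.37e-06), the collagen-cleaving protease Ctsk rose by 0.66, Atp6v0d2 by 0.46, Acp5 by 0.38 and Tnfrsf11a, the receptor of RANKL, by 0.34. Nfatc1, which encodes the master factor of that fate, did not pass (log2 difference 0.18). Of 11 genes of alternative activation 5 rose, with 2 higher without IRX3_WT replicate 2 or 3 or IRX3_S389A replicate 2 and 3 without IRX3_WT replicate 1. Of these 5 calls, that of Mrc1 alone held whichever library was left out. Arg1, Chil3 and Mgl2 of this list did not reach the filter, and Retnla had no read in any library.

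Integrin and adhesion genes fell in 8 of 20 cases and rose in 3. Itgal, the alpha chain of LFA-1, went from 20082, 19218 and 19437 to 14176, 14420 and 13462 and fell by 0.48 (SE 0.03, limma adjusted p = 9.25e-14), and lay close to the GFP libraries (14063, 14385 and 14281). Itgb8, a subunit of an integrin that activates TGF-beta, fell by 0.75 (2359, 2238 and 2302 against 1301, 1362 and 1444) and remained above GFP (624, 627 and 643). Itgax, the CD11c chain, rose by 0.41 (4110, 4258 and 4216 against 5607, 5600 and 5496) and Itgb7 by 0.50. In the purinergic and related list the NAD-consuming ectoenzyme Cd38 fell by 0.99 (2943, 2570 and 3032 against 1420, 1451 and 1412), and both adenosine receptors of the A2 class fell, Adora2a by 0.61 (2298, 2494 and 2346 against 1569, 1588 and 1531) and Adora2b by 0.88 (278, 262 and 308 against 135, 176 and 149). The ATP-gated channel P2rx7 rose by 0.44. Of the protease genes, Plau, the urokinase, rose by 0.55 (449, 502 and 429 against 643, 700 and 681) while its receptor Plaur fell by 0.19.

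Stress genes changed in both directions. In the list of endoplasmic reticulum stress, amino-acid response and heat shock 10 of 27 rose and 9 fell, at a median of -0.06, with 6 higher without IRX3_WT replicate 3. Trib3 (98.4, 119 and 126 against 58.9, 64.4 and 46.7, fell by 1.01) and Chac1 (75.8, 64.4 and 83.1 against 34.1, 42.3 and 36.6, fell by 0.96), both targets of ATF4, fell together with Atf4 itself (by 0.22), Asns (by 0.28) and Sesn2 (by 0.49). Rises included genes of proteins that fold others in the endoplasmic reticulum, Sdf2l1 by 0.40 (870, 970 and 918 against 1212, 1247 and 1168), Pdia4 by 0.29, Calr by 0.25 and Hsp90b1 by 0.16, and the inducible heat shock genes Hspa1a (0.54) and Hspa1b (0.42), which are near-identical copies and thus uncertain 1 by 1. Of 29 genes of glycolysis and HIF1A targets 7 fell and 4 rose. Slc2a1, the glucose transporter GLUT1, fell by 0.23 (4063, 3955 and 4259 against 3391, 3507 and 3573), while the glycolytic genes Ldha (log2 difference 0.03), Pgk1 (log2 difference 0.05) and Aldoa (log2 difference 0.03) did not pass. Of the 11 calls of that list, 2 of 7 lower and 2 of 4 higher held whichever library was left out, with 2 lower without IRX3_WT replicate 3. In mitochondrial respiration 3 of 26 genes rose, by 0.10 to 0.16, where the share over all genes tested was 8.21%. None of these calls held in every fit that left out 1 library. The zinc transporter Slc39a14 fell by 0.34 and the peroxiredoxin Prdx1 rose by 0.17.

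Of the noncoding transcripts, the precursor of miR-155, Mir155hg, fell by 0.40 (1208, 1207 and 1106 against 854, 874 and 942, limma adjusted p = 2.13e-05) and Ptgs2os2, antisense to Ptgs2, by 0.45. For the latter, reads of Ptgs2 cannot be told apart where the strand setting is not stated. Malat1 fell by 0.72 (12297, 10797 and 16217 against 7423, 7130 and 9102), a call lost without IRX3_S389A replicate 1 or 2 (limma adjusted p up to 0.0612).

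The largest changes outside these lists mostly involved genes of low level. Among rises were the surface glycoprotein Cd24a (16.7, 6.23 and 11.4 against 34.1, 27.2 and 26.4, 1.36), Ceacam19 (14.8, 15.6 and 18.2 against 41.3, 43.3 and 37.6, 1.28), the anchoring protein Akap6 (1.20), the lysosomal channel Mcoln3 (0.96) and Ica1 (0.91). Among falls were the potassium channel Kcna2 (54.1, 57.1 and 35.3 against 24.8, 18.1 and 13.2, fell by 1.35), the adhesion receptor Adgrb2 (by 1.31), the glutamate transporter Slc1a2 (36.4, 34.3 and 34.1 against 14.5, 12.1 and 14.2), Hip1r (by 1.21), the phosphodiesterase Pde10a (by 1.08), the transcriptional repressor Gfi1 (440, 432 and 564 against 212, 253 and 199, by 1.11) and Lad1 (2027, 2287 and 1916 against 946, 984 and 917, by 1.13). 9 genes of like size lost their calls without single libraries. Cd24a did so without IRX3_WT replicate 2 (limma adjusted p = 0.0565), Shroom4 without IRX3_WT replicate 1 or IRX3_S389A replicate 1 (up to 0.07), Ddit4 without IRX3_WT replicate 3 or IRX3_S389A replicate 2 (up to 0.0646) and Zfp14 without replicate 3 of either construct (up to 0.156). Ifitm7 did so without IRX3_WT replicate 1 or 3 or IRX3_S389A replicate 2 (up to 0.0737), and Glcci1 without IRX3_WT replicate 1 or 2 or IRX3_S389A replicate 2 (up to 0.0919). Ehd2 needed IRX3_WT replicate 2 and IRX3_S389A replicates 1 and 2 (up to 0.253 without), Serpinb1c IRX3_WT replicate 3 and each IRX3_S389A library (up to 0.212), and Ly6i, at an adjusted p of 0.048, lost its call in 8 of the 12 fits (up to 0.227). Genes chosen after their values were seen, for their small p, included Gpnmb, a glycoprotein of lipid-laden macrophages (0.44, from a mean of 58959 to 80000), Lgals3 (0.42), the lipid droplet coat gene Plin2 (0.37) and Vwf (0.72), all higher, and the formyl peptide receptor Fpr1 (-0.53), the Wnt receptor Fzd1 (-0.55) and Id1 (-0.79), all lower.

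The nearest other construct is IRX3_S361A, and the 2 mutants were tested against each other directly. At 10.2% of the genes tested (1359), 936 were higher (7.00%) and 423 lower (3.16%) with IRX3_S389A, and 110 (0.823%) differed by 1.5-fold or more. This split depends on scaling: with libraries scaled to equal totals 597 were higher and 1053 lower. Irx3 was itself lower with IRX3_S389A than with IRX3_S361A, by 0.90 in log2 (SE 0.19, limma adjusted p = 0.000867), so construct and Irx3 level cannot be told apart here. In the interferon-stimulated list 47 of 59 members passed the test as higher than with IRX3_S361A and none as lower, at a median of 0.32 (42 and none with equal totals). Ifit2 held 23717, 23972 and 22387 with IRX3_S361A, below each IRX3_S389A library, and differed by 0.63. Of the 32 mitotic genes 16 were lower and none higher, at a median of -0.37, and of the 30 replication genes 12 were lower (22 and 17 with equal totals). Top2a held 1933, 1919 and 1903 with IRX3_S361A and differed by -0.36.

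Of the 21 cytokine genes 7 were higher than with IRX3_S361A and none lower (7 and 1 with equal totals). Tnf was higher by 0.26 (33376, 32458 and 31832 with IRX3_S361A, limma adjusted p = 4.33e-06). Il6 was higher by 0.35 (2820, 3238 and 3037, adjusted p = 0.017), a call lost without IRX3_S361A replicate 1 or 3 or IRX3_S389A replicate 2 or 3 (up to 0.0839). The differences of Lif (0.14, SE 0.11, adjusted p = 0.52) and Il12b (-0.10, SE 0.06, adjusted p = 0.36) did not pass. Of the 24 cholesterol genes 9 were higher, Cyp51 by 0.49 among them. By the rule for large differences Serpinb9b (1.02), Gsta3 (1.01) and Chac1 (-0.98) stood out and kept their calls whichever library was left out. Crybg2 (1.10) lost its call without IRX3_S389A replicate 3 (limma adjusted p = 0.0938), Esco2 (-0.86) without IRX3_S361A replicate 1 or IRX3_S389A replicate 1 or 3 (up to 0.0613) and Shc2 (1.00) without IRX3_S361A replicate 2 or 3 or IRX3_S389A replicate 2 (up to 0.0988). The calls of Slc6a20a (1.05), Fgfrl1 (-0.99) and Twnk (-0.98) were likewise lost without any of 3 or 4 of the 6 libraries (up to 0.132, 0.186 and 0.308). The IRX3_S389A libraries serve in both comparisons, so the values are side by side and not independent.

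**Figure D5:**
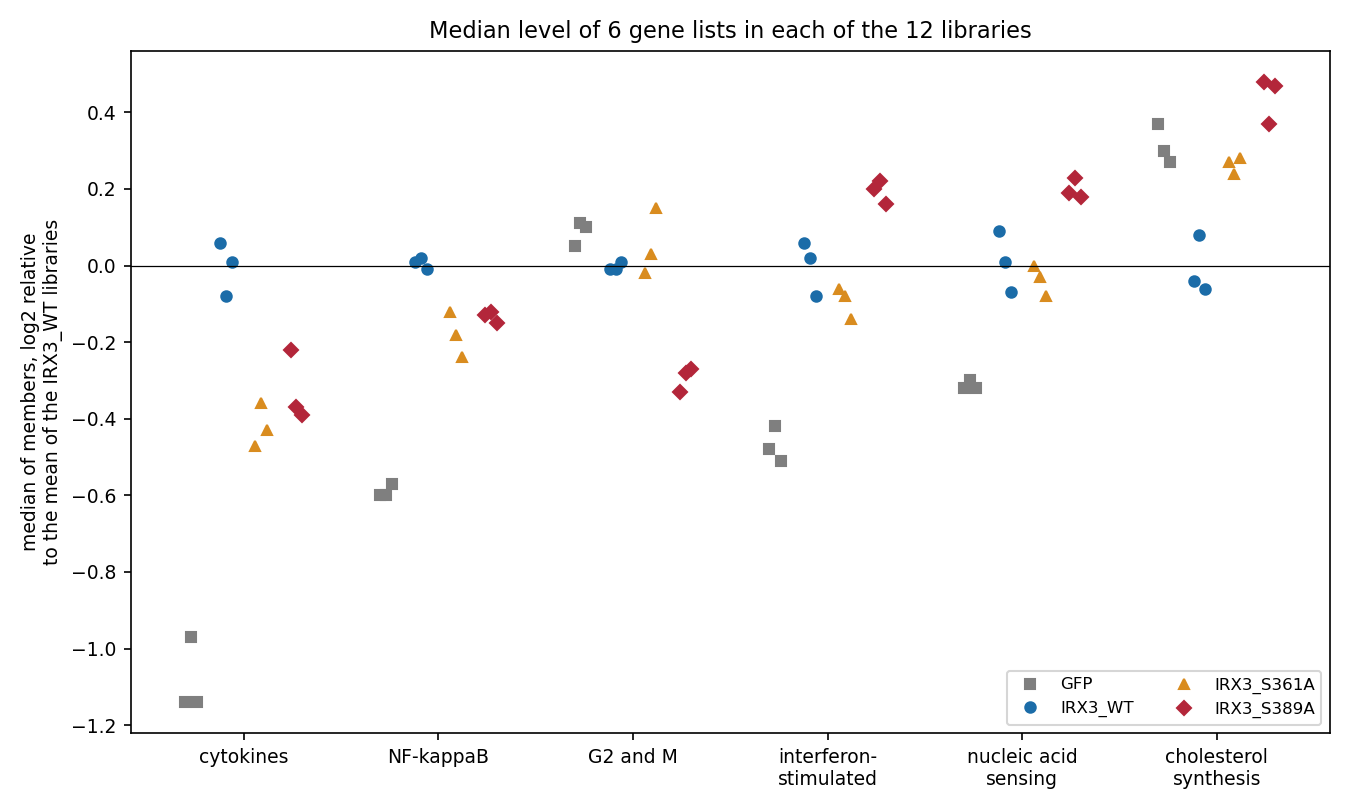
Median over the tested members of 6 gene lists (x axis) of the log2 level in each of the 12 libraries relative to the mean of the IRX3_WT libraries (y axis). In the interferon-stimulated list the IRX3_S389A libraries lie at 0.16 to 0.22, above all others, and in the G2 and M list at -0.33 to -0.27, below all others.

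Markers that define other blood cells were in part without a read. Ly6g, Mpo, Elane and Ctsg of the neutrophil list, Trbc2 and Gzma of the T and NK cell list and Car1 of the erythroid list had none in any of the 12 libraries, and no mast cell or basophil marker reached the filter. Over all marker lists 6 of 28 tested genes were called, where the share over all genes tested was 15.3%. Csf3r (fell by 0.29), Fscn1 (by 1.03), Pf4 (by 0.28) and Pdgfrb (by 0.43) were lower and Il7r (0.40) and Kdr (0.43) higher, the call of Pdgfrb being lost without replicates 1 or 3 of IRX3_WT or 1 or 2 of IRX3_S389A (limma adjusted p up to 0.146). The summed levels ran, in IRX3_WT and IRX3_S389A, from 2240 to 2535 and 1876 to 2174 for neutrophil, 1277 to 1367 and 1561 to 1701 for T and NK cell, 1285 to 1508 and 1698 to 1810 for stromal and endothelial, and 4136 to 4355 and 3386 to 3592 for erythroid and megakaryocyte markers. Of the 12 erythroid and megakaryocyte markers only 2, Pf4 and Ppbp, reached the filter, so that sum is almost wholly theirs. The summed dendritic cell list ran from 2034 to 2248 in IRX3_WT and 1176 to 1256 in IRX3_S389A, with Fscn1 at a mean of 1823 and 890.8, while over these 6 libraries Flt3 had no read and Cd209a 1 read. That sum follows Fscn1: of the 7 dendritic cell markers tested only this 1 was called. The median difference of the 7 was 0.06, and 4 of them lay above 0. The part of other cells in the results above was not tested beyond these levels.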

How the data were processed

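The deposited table holds 1 column of normalized signal per library for 55401 genes, that is, gene counts which the authors divided by a size factor before deposit, as read from the values. Every value is a whole multiple of 1 step per library (100% whole within a relative 1e-06; 1 read is worth 0.890 to 1.14 units), so reads were recovered from the steps, 17149058 to 20108002 per library. Counting error is small beside library spread for genes of high level only. By edgeR the common spread between libraries beyond counting error was 0.0508 of the level. For the median tested gene, at a mean of 305 units, counting error is of like size. The limit that a count of 0 allows is 3 reads. Per the submitters' processing notes, Trimmomatic, HISAT2 2.1.0, StringTie 1.3.5 and the mm10 genome were used, while no source used here gives the counter, its strand setting or the size-factor tool.

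Genes with at least 10 units in at least 3 of the 12 libraries (13369) were tested on log2(value + 1) with limma 3.58.1 (R 4.3.3), fitting 4 construct means over all 12 libraries with trended, robust variances (8 residual degrees of freedom) and Benjamini-Hochberg adjustment. Every log2 difference is on that scale and understates changes of weak genes. The test was checked on simulated data. Alternatives were edgeR 4.0.16 and DESeq2 1.42.0 on recovered reads, other pseudocounts, filters and scalings, a replicate block, leaving out each library and, chosen after seeing the data, GC-corrected values, a fit without IRX3_WT replicate 1 and IRX3_S389A replicate 3 (GC trend) and edgeR on 9 libraries. Irx3, 10 preset cytokine and enzyme genes, the 15 largest rises and 15 largest falls (adjusted p under 0.05, mean of at least 20, groups that do not overlap, no provisional symbols), up to 4 genes of smallest p per list and the 5 largest of each sign against IRX3_S361A were named by rule. Other list members were named after their values were seen, to give each list's best-known genes, called or not. A few genes that the rule names are not reported here. The comparison, its gene lists and its markers were chosen with earlier results of these data known. Identifiers were matched to GENCODE M21 (GRCm38) for 99.5% of rows, and promoters come from RefSeq GRCm38.p6, where 9493 of 13366 tested symbols had an entry.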

Additional observations from a re-analysis of the deposited data

How the results depend on the processing

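The count of genes called between IRX3_S389A and IRX3_WT, 2043, stayed within 1.5 times that value under every alternative except limma without trended and robust variances, which called 1173 (650 higher, 523 lower). The reads recovered gave 2015 calls with edgeR and 1887 with DESeq2. Leaving out 1 library gave 1448 to 2173, and leaving out IRX3_WT replicate 1 and IRX3_S389A replicate 3, the 2 of the 6 with the strongest GC trend, 1481. Whether same-numbered libraries share more than a number is not stated. Their deviations from the group means correlated at -0.041 to 0.0297, and those of differently numbered libraries of other groups at -0.0447 to 0.0471. The replicate block called 1982 genes between IRX3_S389A and IRX3_WT and 1322 between IRX3_S389A and IRX3_S361A.

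Between IRX3_S389A and IRX3_S361A the count of 1359 (936 higher, 423 lower) fell to 684 (491 higher, 193 lower) without trended and robust variances and to 433 (314 higher, 119 lower) with edgeR on 9 libraries, which lack 1 IRX3_S389A and 2 IRX3_S361A libraries. With equal totals 597 were higher and 1053 lower. Leaving out 1 library gave 904 to 1415 calls and 245 to 449 lower genes, with the fewest without IRX3_S361A replicate 3, and 275 lower without IRX3_S389A replicate 3.

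Fto, not called at 0.02, changed sign with edgeR on 9 libraries (-0.04) and without IRX3_S389A replicate 2 (-0.03), and ran to 0.07 without replicate 3. No other named gene reversed. Of the 174 named genes, 30 lost their call without those 2 libraries and 30 without trended and robust variances, and 3 with the block. Without trended and robust variances fewer list members were also called: 3 of 6 higher for interferon beta induction, 6 of 10 for nucleic acid sensing and for stress genes, 5 of 9 for macrophage identity, and 8 of 13 lower for NF-kappaB, 5 of 8 for JNK, p38 and AP-1, 4 of 8 for integrins and 5 of 8 for scavenger and Fc receptors. In that fit 25 interferon-stimulated genes were higher, against 37 in the main fit. The cause of these shifts was not tested. Weak genes such as Ifnb1 rest on few reads.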
